A study of Mus musculus with 3 samples.

Results

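The genes described here are 9 members of the WNT pathway in mouse lung. They are the ligand genes Wnt4, Wnt5a, Wnt7b and Wnt11, the secreted antagonist genes Sfrp1 and Sfrp2, the transcription factor genes Tcf7 and Lef1, and the target gene Axin2. They were chosen by symbol, and all 9 had at least 1 row in the deposited expression table, with 17 of its 16383 RefSeq transcript rows between them. The libraries came from whole lung of mice on a mixed C57BL/6J background. One library was labelled wild type (WT), and 2 libraries, DKO 1 and DKO 2, came from lungs labelled as knocked out for both Lin28a and Lin28b. In the DKO lungs tamoxifen had induced a Cre recombinase under Nkx2-1 control, which removes the loxP-flanked exon 2 in lung epithelium, while the RNA was taken from all cells of the lung. The labels give neither age nor sex, and do not say whether WT carried the loxP alleles or the recombinase, or received tamoxifen, or if DKO 1 and DKO 2 were different animals. The spread between DKO 1 and DKO 2 may therefore be technical. The study asked how Lin28a and Lin28b act on lung branching and epithelial differentiation through feedback between signalling pathways, of which WNT is one.

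WNT proteins are secreted lipid-modified ligands that bind Frizzled receptors together with LRP co-receptors. In the canonical branch this stops the destruction of beta-catenin, which then enters the nucleus and activates target genes with the DNA-binding factors of the TCF/LEF family. Secreted Frizzled-related proteins bind WNT ligands outside the cell, and AXIN2 is part of the destruction complex and at the same time a target, so it closes a negative feedback loop. In the developing lung, WNT signals pass between the branching epithelium and the mesenchyme around it, and both supply ligands.

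TCF and LEF proteins bind a short motif, and promoter sequences of the members were searched for it to show how much of this pathway's own binding motif lies next to their start sites. The letters searched were CTTTG followed by a pair of bases that were each A or T, on both strands, in windows from 250 bases before to 50 bases after each start site (RefSeq, GRCm38.p6). Of the 9 members, 6 had a promoter in that collection, with 11 windows in all. A match was found in 2 of the 11 windows (18.2%), 1 of Wnt11 and 1 at a downstream start site of Lef1, against 16.9% of all 32851 windows of the same length and 15 of 119 windows (12.6%) of other and member genes of the pathway together. The matched stretches are shown on the strand of the gene, with the motif, here read on the opposite strand, in capitals.
Wnt11, chr7:98835050-98835078, plus strand: gacgtgggcggATCAAAGcgacggtccgc
Lef1, chr3:131156136-131156164, plus strand: caacctcagaaTACAAAGtaggattgcat
The windows of Sfrp2, Wnt4, Tcf7 and Axin2 held none of these letters. The 100 bases before the start sites of Sfrp2, the member furthest from WT, and of Axin2, the classical target of the pathway, are printed for comparison. Both start sites lie inside the positions given for these genes below, which are spans of the gene and not of a single transcript.
Sfrp2, chr3:83766221-83766320, plus strand: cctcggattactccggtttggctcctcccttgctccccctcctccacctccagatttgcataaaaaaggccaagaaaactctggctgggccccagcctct
Axin2, chr11:108920249-108920348, plus strand: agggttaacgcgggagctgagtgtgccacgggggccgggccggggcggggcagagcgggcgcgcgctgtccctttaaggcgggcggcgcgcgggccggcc
A match is a string of letters and not a binding site, and its lack in so short a window says nothing of binding elsewhere.

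Expression was given as RPKM, reads scaled to transcript length and library size, so levels of different genes are compared per length. The deposited values imply a depth near 48692800 reads in WT, while DKO 1 had 30677200 and DKO 2 had 34191200. Read numbers below are approximations from RPKM and annotated transcript length. Their 95% intervals cover only the counting error of independent reads. Lin28b stood at 0.449 RPKM (WT), 0.187 (DKO 1) and 0.59 (DKO 2), so it was lower in DKO 1 alone and stood above WT in the library labelled DKO 2. Lin28a was not analysed here. This level is summed over the whole transcript and all cells and checks the labels weakly. Of the Y-linked genes, Ddx3y was listed at 0 for WT but reached 5.49 and 2.64 RPKM with DKO 1 and DKO 2, so the sex of the tissue cannot be told apart from the genotype. Libraries also differed in genes of blood and of neighbouring organs. Summed immune markers were at 41.7 RPKM for WT, 383 for DKO 1 and 203 for DKO 2, and summed erythroid markers at 20200, 28700 and 103000. Summed liver markers were at 7.55, 11.4 and 183 RPKM and summed heart markers at 21.1, 13.7 and 81.8, so DKO 2 was the highest in erythroid, liver and heart genes. Whether these differences have a part in the values below was not tested.

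How much of each gene could be read went with how many transcripts of it the table lists. Sfrp1, Sfrp2, Wnt4, Tcf7 and Axin2 had 1 row each, and all 5 were above 0 in every library. The other 4 genes had 2 to 4 rows each, and 10 of their 12 rows were listed at 0 in all 3 libraries. Over the whole table, 44.5% of rows were at 0 in all libraries for genes with 1 row, 84.5% for genes with 2 rows, 89.3% for 3 rows and 95.6% for 4 or more. In the GENCODE annotation, the 4 rows of Wnt11 had 0 exonic bases of their own that another listed transcript of the gene lacks. The rows of Lef1 had 0, 24 and 0 such bases, those of Wnt7b 479, 563 and 213, and those of Wnt5a 19 and 3379. The Wnt5a transcript with 3379 bases of its own was the 1 row of these 12 with more than about 1 read in any library. A level of 0 for Wnt11, Lef1 or Wnt7b in this table was therefore not read as silence of the gene, although the rows of Wnt7b did have bases of their own. How reads shared by transcripts were counted was not given, and the cause of these zeros was not tested. Wnt7b, Wnt11 and Lef1 are each also overlapped on the opposite strand by another annotated gene.

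**Figure D1:**
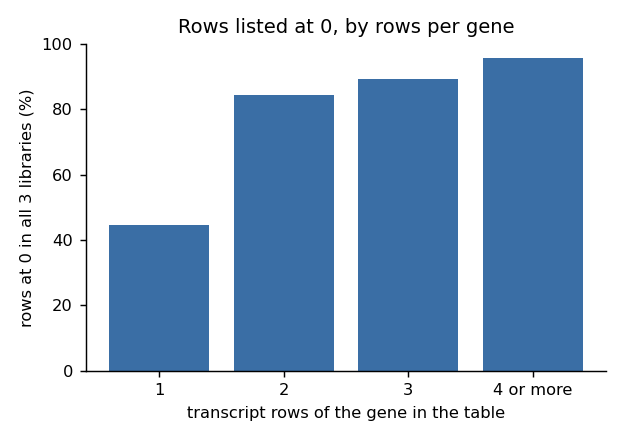
Share of transcript rows listed at 0 RPKM in all 3 libraries (vertical axis, percent) by the number of rows that their gene has in the table (horizontal axis). The share is 44.5% for genes with 1 row and 95.6% for genes with 4 or more, the class that holds Wnt11.

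Among the ligands, Wnt4 was lower in both DKO libraries than in WT, without passing the test. Wnt4 is a ligand needed for kidney and female reproductive tract development (NM_009523, chromosome 4, 137277635 to 137299501). The level was 1.55 RPKM for WT, 0.64 for DKO 1 and 0.902 for DKO 2, from roughly 316, 82 and 129 reads respectively. WT was the highest library, and both DKO libraries lay below it and closer to each other than to WT. The ratio to WT was 0.413 in DKO 1 (95% exact binomial interval 0.319 to 0.527) and 0.583 in DKO 2 (0.47 to 0.716). The DKO mean was 0.771 ± 0.186 RPKM (SD, n = 2). On the log2(RPKM + 1) scale, which understates changes of low genes, the difference was −0.53 (SE 0.82, 95% interval −2.31 to 1.26, limma adjusted p = 0.999). Counting error of independent reads thus does not cover the difference between these libraries, whereas the spread between samples that limma estimates does.

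Wnt5a, a ligand of the non-canonical branch that is made by distal lung mesenchyme and epithelium, was read at a very low level from 1 of its 2 transcripts (NM_009524, chromosome 14, 28504543 to 28527448). The level was 0.16 RPKM for WT and 0.0973 for DKO 1, from roughly 55 and 21 reads, and DKO 2 was listed at 0. DKO 1 stood at 0.607 of WT (95% exact binomial interval 0.348 to 1.02), so counting error alone covers the difference of DKO 1. For DKO 2, listed at 0 against roughly 55 reads in WT, no interval was computed, and this statement does not extend to it. Without a filter on low values the log2(RPKM + 1) difference was −0.15 (SE 0.09, limma adjusted p = 0.922). Its other transcript, NM_001256224, was listed at 0 in all libraries. Wnt7b, the canonical ligand of lung epithelium (chromosome 15, 85535437 to 85581821), had 0.00966 RPKM in DKO 1 from 1 of its 3 transcripts, about 1 read, and was otherwise listed at 0. Wnt11, a non-canonical ligand (chromosome 7, 98835084 to 98854747), was listed at 0 throughout.

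**Figure D2:**
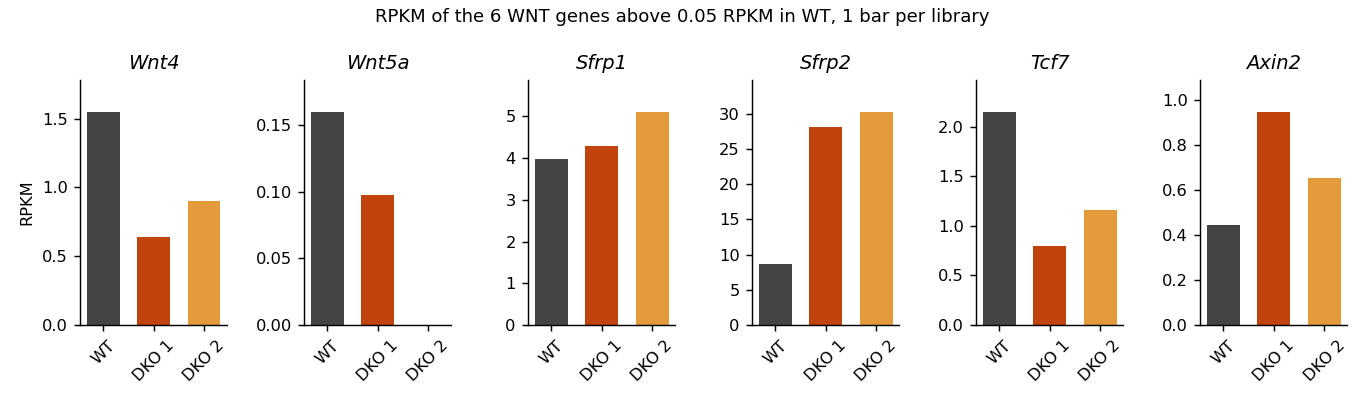
RPKM (vertical axis, separate linear scale for each gene) of the 6 member genes above 0.05 RPKM in WT, with 1 bar for each of the 3 libraries and no error bar, since each bar is a single library. Sfrp2 stands at 8.68 RPKM in WT and at 28.2 and 30.3 in the DKO libraries, while Wnt4 and Tcf7 are highest in WT.

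Of the secreted antagonists, Sfrp2 was about 3-fold above WT in both DKO libraries, the largest difference among the members, and did not pass the test over all transcripts. SFRP2 is a Frizzled-related protein that binds WNT ligands and is made by mesenchymal cells (NM_009144, chromosome 3, 83765750 to 83774314). The level was 8.68 RPKM for WT, 28.2 for DKO 1 and 30.3 for DKO 2, from roughly 847, 1730 and 2078 reads respectively. Both DKO libraries were high and lay close together, with a mean of 29.2 ± 1.55 RPKM (SD, n = 2). The ratio to WT was 3.24 in DKO 1 (95% exact binomial interval 2.98 to 3.52) and 3.49 in DKO 2 (3.22 to 3.79). The log2(RPKM + 1) difference was 1.64 (SE 0.73, 95% interval 0.05 to 3.23, unadjusted p = 0.0439, limma adjusted p = 0.999 over 2066 transcripts). An unadjusted p under 0.05 was found for 3.19% of all tested transcripts. The DKO libraries differed from each other by 0.105 on the log2(RPKM + 1) scale, against a median of 0.578 over all tested transcripts. A predicted gene, Gm26771, overlaps Sfrp2 on the opposite strand, and without stated strand use its reads could not be told from those of Sfrp2.

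Sfrp1, the other Frizzled-related protein gene, is made by lung mesenchyme (NM_013834, chromosome 8, 23411383 to 23449632). The level was 3.98 RPKM for WT, 4.29 for DKO 1 and 5.11 for DKO 2, from roughly 847, 575 and 764 reads respectively. Both DKO libraries were above WT by a small amount, with a mean of 4.7 ± 0.581 RPKM (SD, n = 2). The ratio to WT was 1.08 in DKO 1 (95% exact binomial interval 0.968 to 1.2), which counting error covers, and 1.28 in DKO 2 (1.16 to 1.42). Its log2(RPKM + 1) difference was 0.19 (SE 0.64, 95% interval −1.20 to 1.58, limma adjusted p = 0.999). The pair of antagonists thus stood in another proportion in the DKO libraries than in the WT library. The level of Sfrp2 over that of Sfrp1 within a library was 2.18 for WT, 6.57 for DKO 1 and 5.94 for DKO 2. Such a ratio does not depend on how libraries were scaled. The level of Sfrp2 over that of Wnt4, an antagonist over a ligand, was 5.61 for WT, 44 for DKO 1 and 33.6 for DKO 2. With 1 WT library these ratios have no test.

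Tcf7, which encodes the TCF/LEF factor TCF1, was lower in both DKO libraries without passing the test (NM_009331, chromosome 11, 52246527 to 52283383). The level was 2.15 RPKM for WT, 0.801 for DKO 1 and 1.16 for DKO 2, from roughly 258, 61 and 98 reads respectively. WT was the highest, and the DKO libraries had a mean of 0.982 ± 0.256 RPKM (SD, n = 2). The ratio to WT was 0.373 in DKO 1 (95% exact binomial interval 0.279 to 0.498) and 0.541 in DKO 2 (0.424 to 0.685). The log2(RPKM + 1) difference was −0.67 (SE 0.77, 95% interval −2.35 to 1, limma adjusted p = 0.999). TCF1 is also a leading factor of T cells. Of 15 T cell and thymus genes, 9 were listed at 0 in every library, among them the defining genes Cd3e, Cd3g, Cd4, Cd8a and Lck, of which Cd8a and Lck have several rows. The summed level of the 15 was 16.1 RPKM for WT, 21.5 for DKO 1 and 27 for DKO 2 and nearly all of it came from Ptcra (15.7, 20.4 and 26.4 RPKM). The other T cell genes above 0 were low and showed no common side. Cd8b1 (0.232, 0 and 0.0826 RPKM) and Cd28 (0.0285, 0 and 0 RPKM) were below WT in both DKO libraries. Thy1 (0.0947, 0.676 and 0.118 RPKM) was above WT in both. Cd3d (0.108, 0.0245 and 0.352 RPKM) and Cd5 (0, 0.457 and 0 RPKM) did not share a side of WT in the DKO libraries. Whether T cells have a part in the values of Tcf7 was not tested. Lef1, the partner factor of the same family (chromosome 3, 131110297 to 131224357), was listed at 0 in all 3 rows and libraries.

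Axin2, the feedback inhibitor and a standard readout of canonical WNT signalling, was above WT in both DKO libraries at a low level (NM_015732, chromosome 11, 108917828 to 108950783). The level was 0.444 RPKM for WT, 0.949 for DKO 1 and 0.652 for DKO 2, from roughly 92, 124 and 95 reads respectively. WT was the lowest, and the DKO mean was 0.801 ± 0.21 RPKM (SD, n = 2), so DKO 2 lay about midway between WT and DKO 1. The ratio to WT was 2.14 in DKO 1 (95% exact binomial interval 1.62 to 2.83) and 1.47 in DKO 2 (1.09 to 1.98). Its mean over the libraries, 0.682 RPKM, was below the 1 RPKM asked for the test, and without a filter the log2(RPKM + 1) difference was 0.31 (SE 0.39, 95% interval −1.20 to 1.83, limma adjusted p = 0.922). The level of Axin2 over that of Tcf7 was 0.207 for WT, 1.18 for DKO 1 and 0.561 for DKO 2, with these target genes on opposite sides of WT. A predicted gene, Gm11670, overlaps Axin2 on the opposite strand.

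In order of level, WT had Sfrp2 first, then Sfrp1, Tcf7, Wnt4 and Axin2. In DKO 1 the order was Sfrp2, Sfrp1, Axin2, Tcf7 and Wnt4, and in DKO 2 it was Sfrp2, Sfrp1, Tcf7, Wnt4 and Axin2. The 3 lower genes lay between 0.64 and 0.949 RPKM in DKO 1 and between 0.652 and 1.16 in DKO 2, and their order there was not shared by the DKO libraries. Sfrp2 and Sfrp1 were the first and second in every library.

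Of the 9 members, 4 reached a mean of 1 RPKM and were tested, namely Wnt4, Sfrp1, Sfrp2 and Tcf7. None of the 4 passed limma at an adjusted p under 0.05, against 0.0968% of all tested transcripts (2 of 2066), and 1 had an unadjusted p under 0.05. By size, Sfrp2 was at least 2-fold above WT in each DKO library on the log2(RPKM + 1) scale, with the pair closer to each other than to WT, as were 3.19% of all tested transcripts. No tested member was below WT by this rule, against 1.5% of all. Sfrp1 and Sfrp2 lay above WT in both DKO libraries, as did 32.1% of tested transcripts, and Wnt4 and Tcf7 below it, as did 31%. Sfrp2 had the 59th highest of the 2066 differences. Those of Sfrp1, Wnt4 and Tcf7 stood at percentiles 61.7, 19.7 and 13.6.

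**Figure D3:**
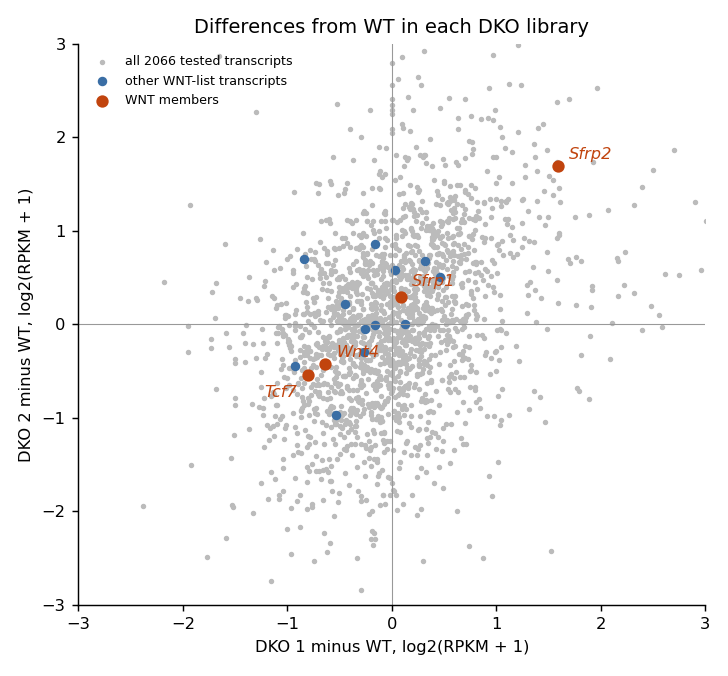
Difference from WT on the log2(RPKM + 1) scale in DKO 1 (horizontal axis) and DKO 2 (vertical axis) for the 2066 tested transcripts, of which 42 lie outside the plotted range of ±3, with the 4 tested members in red and other genes of the wider WNT list in blue. Both axes share the WT library, which by itself draws points along the diagonal. Sfrp2 lies at 1.59 and 1.69, apart from the other members.

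The members were set beside genes that mark the cells of the lung. These marker lists were chosen with earlier results of these data known, so their counts only describe these libraries. Of the 10 tested transcripts of the epithelial list, 7 were below WT in both DKO libraries, against 31% of all tested transcripts. In this list 1, Sftpc, passed, against 0.0968% of all. Sftpc did not pass without a filter, with quantile normalization, with TPM or with robust limma estimation, where no transcript was called lower. The summed level of the list was 565 RPKM for WT, 164 for DKO 1 and 126 for DKO 2, and 195, 156 and 126 without Sftpc. In the mesenchymal list 6 of 11 tested transcripts were above WT in both and 1 below, against 32.1% and 31% of all. The summed levels of this list were 213, 264 and 193 RPKM. In bulk RNA, fewer cells of a type and less RNA per cell cannot be told apart. Whether these shifts have a part in the values of the members was not tested.

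Within libraries, Sfrp2 was higher relative to each of the 11 tested mesenchymal genes in both DKO libraries than in WT. The same held against 88.2% of all other tested transcripts, with a lower ratio for 3.44%, so this is not particular to the mesenchymal genes. Relative to WT, the ratio of Sfrp2 to these genes in DKO 1 had a median of 2.19 and ran from 1.06, against the growth factor gene Fgf10, to 3.49, against the intermediate filament gene Vim. In DKO 2 the median was 3.45, with a range from 1.45, against the forkhead gene Foxf2, to 12.4, against the matrix gene Lum. The ratio of Sfrp1 to the same 11 genes was higher in both DKO libraries for 1 (42.1% of all tested transcripts) and lower for 4 (24.8% of all). Wnt4 was lower relative to 10 of the 11 mesenchymal genes, against 73.6% of all tested transcripts. Relative to the 10 epithelial genes it was lower for 2, higher for 3 and on either side for 5, while over all tested transcripts it was higher for 2.57%. For Tcf7 against the epithelial genes the counts were 3 lower, 3 higher and 4 on either side, where 76.4% of all transcripts gave a lower ratio and 1.84% a higher one. Axin2 was higher relative to 9 of the 10 epithelial genes and 8 of the 11 mesenchymal genes, against 64.2% of all transcripts, and lower for 0 and 1, against 8.52%.

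Relative to WT, the ratio of Wnt4 to the 10 epithelial genes was 0.966 at the median for DKO 1 and 1.53 for DKO 2, and that of Tcf7 was 0.872 and 1.42. The genes scattered widely around these medians. The lowest ratios were against the keratin gene Krt19 in both DKO libraries, at 0.206 and 0.197 for Wnt4 and at 0.186 and 0.183 for Tcf7, and the highest were against Sftpc. The level of Wnt4 over that of Tcf7 within a library was 0.72 (WT), 0.798 (DKO 1) and 0.776 (DKO 2). These values describe 3 libraries and do not place either gene in a cell type.

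The wider WNT pathway was read from 134 genes in 8 lists by role, of which 84 had a row and 51 a value above 0 in any library. Of the 63 genes with a single row 17 were at 0 everywhere, and of the 21 with several rows 16 were. Only 16 transcripts reached the level for testing. None passed limma with Benjamini-Hochberg adjustment, against 0.0968% of all tested transcripts. An unadjusted p under 0.05 was found for 1, Sfrp2, against 3.19% of all. In both DKO libraries 6 of the 16 lay above WT and 7 below, against 32.1% and 31% of all. The median log2(RPKM + 1) difference of the 16 was −0.08, against −0.01 over all tested transcripts. With TPM scaling the 2 medians were −0.32 and −0.22, so the median of all genes itself moved, and without a filter on low values that of the list was 0.03. The members make up 4 of the 16.

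The ligand gene next in level to Wnt4 was Wnt2b, a canonical ligand of early lung mesoderm, with 0.178 RPKM for WT, 0.182 for DKO 1 and 0.614 for DKO 2. It did not reach the level for testing. Of 15 ligand-list genes with a row, 8 were listed at 0 in every library. Among receptors, Fzd7, a Frizzled receptor, had 3.72, 4.14 and 3.73 RPKM, and Ror2, the receptor tyrosine kinase for WNT5A, had 0.616, 1.23 and 1.3 RPKM (log2 difference 0.49, SE 0.81, limma adjusted p = 0.999). Both tested receptor genes lay above WT in both libraries, as did 32.1% of all tested transcripts, with Fzd7 above by no more than 0.12 on the log2 scale. Lrp6, a co-receptor named after its values were seen, had 0.634, 0.856 and 0.802 RPKM and was not tested. Of the list of R-spondins, their receptors and the ligases they act on, none was tested. Lgr5, an R-spondin receptor and target gene, had 0.0131, 0.0623 and 0.658 RPKM, and Lgr6 was above 0 in DKO 1 alone, at 0.063 RPKM.

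The antagonist list had 7 genes with a row, each a single row, and all 7 were above 0 in some library. Their summed level was 14.1 RPKM for WT, 33.8 for DKO 1 and 35.8 for DKO 2, and Sfrp2 made up most of it. The summed level of the ligand list was 1.9, 1.04 and 1.57 RPKM. Of the 21 genes of the ligand list 6 had no row and 8 were listed at 0 everywhere, while 11 of 18 antagonist genes had no row. The sums thus cover only parts of their lists and give no balance of antagonists to ligands. Dkk3, a member of the Dickkopf family, ran the other way from Sfrp2, with 1.36, 0.592 and 0.192 RPKM. It was named after its values were seen and was below the level for testing.

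**Figure D4:**
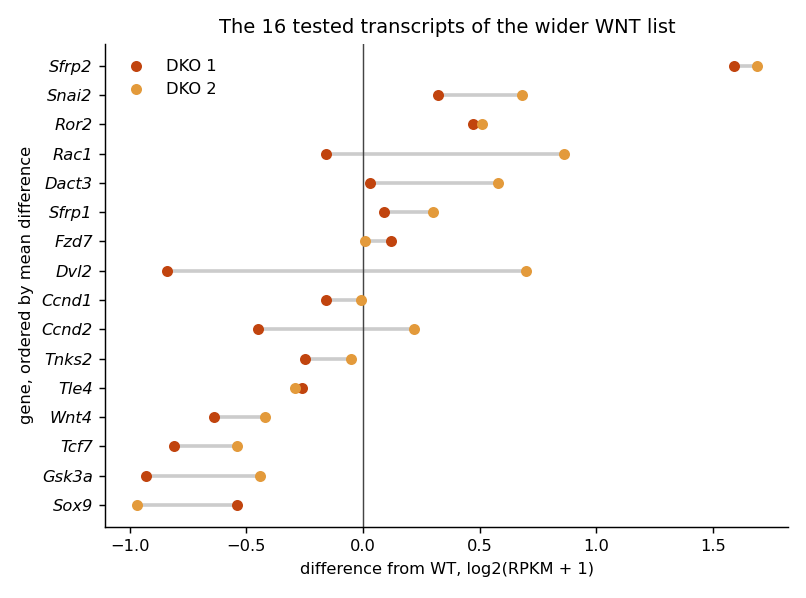
Difference from WT on the log2(RPKM + 1) scale (horizontal axis) in DKO 1 and DKO 2, joined by a grey line, for the 16 tested transcripts of the wider WNT list, ordered by their mean difference. Sfrp2 is the only one past a difference of 1 in either DKO library, and Dvl2, Ccnd2 and Rac1 lie on either side of WT.

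Of the transducers inside the cell, Gsk3a, a kinase of the destruction complex, had 2.22 RPKM (WT), 0.693 (DKO 1) and 1.37 (DKO 2) (log2 difference −0.68, SE 0.77, limma adjusted p = 0.999). Tnks2, a tankyrase that marks AXIN proteins for breakdown, had 8.15, 6.68 and 7.83 RPKM. Dact3, a Dishevelled antagonist, had 2.24, 2.31 and 3.84. Dvl2, a Dishevelled adaptor, was low in DKO 1 and high in DKO 2, with 3.02, 1.24 and 5.53 RPKM. No gene of this list passed. Of its 4 tested transcripts 1 was above WT in both DKO libraries, 2 were below and 1 was on either side, against 32.1% above and 31% below over all.

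The nuclear list had 2 tested transcripts, Tcf7 and the co-repressor gene Tle4 (5.39, 4.32 and 4.22 RPKM). Both were below WT in both DKO libraries, as were 31% of all tested transcripts. All 5 genes of this list with several rows were listed at 0. Among target genes, 1 of 5 tested transcripts was above WT in both libraries, 3 were below and 1 was on either side. Over all tested transcripts 32.1% were above and 31% below. The cell cycle gene Ccnd1 had 14.1, 12.5 and 14.1 RPKM, so DKO 2 was within 0.01 of WT on the log2 scale, and Ccnd2 had 33.2, 24.1 and 38.9. Sox9, a factor of the distal epithelial tips, had 3.84, 2.34 and 1.47 RPKM (log2 difference −0.75, SE 0.68, limma adjusted p = 0.999). Snai2, a mesenchymal repressor gene, had 21.9, 27.6 and 35.7. Axin2, Tcf7, Ccnd1, Sox9 and Snai2 thus did not share a side of WT. In the planar polarity list, which covers the branch that orients cells, Rac1, a small GTPase gene, had 40.1, 35.8 and 73.5 RPKM. Prickle1, a core polarity gene below the level for testing, had 1.66, 0.63 and 0.222.

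The tested transcripts most like each member were found by the distance between their differences from WT in DKO 1 and DKO 2 on the log2(RPKM + 1) scale. With 3 libraries, many transcripts lie close to any member, and the measure rests on the same WT library throughout. Closest to Sfrp2 was Plat, the tissue plasminogen activator gene, with 1.12, 5.33 and 6.08 RPKM (distance 0.048). Dpm2 (11.9, 35.7 and 37.9 RPKM) and Gbp2b (0, 1.92 and 1.92 RPKM) followed. Closest to Wnt4 was the helicase gene Ddx11, with 1.75, 0.746 and 1.06 RPKM (distance 0.021), followed by Nubp2 and Brd9. The kinase gene Hunk, with 4.22, 2.04 and 2.54 RPKM (distance 0.029), was closest to Tcf7, followed by Ccnf and Mettl1. Closest to Sfrp1 was Kifap3, with 5.17, 5.62 and 6.66 RPKM (distance 0.021), followed by Xpot and H2ax.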

How the data were processed

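RNA sequencing libraries of whole lung were made with a low-input cDNA kit from Trizol-extracted RNA, per the labels' protocols. Per the submitters' processing notes the tools were cutadapt, TopHat2, HTSeq and edgeR with build mm10, and their roles and versions were left unstated. The deposited values are the authors' RPKM, listed by RefSeq transcript in a column for each library. Annotation, lengths, the total behind the scaling and strand use: not given in the sources used here. RefSeq (GRCm38.p6) named 16151 of the rows and GENCODE M21 a further 77, while 155 had no name.

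Groups came from the sample titles (1 WT, 2 DKO). Values were analysed as log2(RPKM + 1) for the 2066 transcripts whose mean reached 1 RPKM, with limma 3.58.1 in R 4.3.3 (mean-variance trend, two-sided, Benjamini-Hochberg over all tested, threshold 0.05). With 1 residual degree of freedom (the DKO pair) and 11.2 prior degrees, the fit takes WT to vary as the DKO libraries do. Members under the filter were taken from a fit of the 5245 transcripts above 0. The fit was run on simulated data with changes larger than that of any member, so this run does not show whether changes of the members' size can be found. Approximate reads were RPKM times GENCODE transcript length over the worth of 1 read (0.0205, 0.0326 and 0.0292 RPKM-kilobases in WT, DKO 1 and DKO 2). Between 1 and 100 reads, the share within 0.05 of a whole number was 45.8%, 45.3% and 44.2%. The intervals take reads as independent, and PCR copies are not, so with copies the intervals are too narrow even for counting error.

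The members and lists were chosen with earlier results of these data known. The text names all members. From each wider list it names up to 4 tested transcripts whose 2 DKO values lay to one side of WT, by the smaller difference, and the 2 with the highest mean. It also names the 3 transcripts most like each tested member. Lrp6, Dkk3, Cd8b1, Cd28, Ptcra, Thy1, Cd3d and Cd5 were added after their values were seen. Alternatives covered the pseudocount, the filter, the scaling, the moderation, the fold of the size rule and leaving out each DKO library.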

Additional observations from a re-analysis of the deposited data

How the results depend on the processing

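None of the 4 tested members passed limma under any alternative run. Axin2, Wnt5a and Wnt7b were fitted only without a filter on low values, where no transcript passed. Wnt11 and Lef1, listed at 0, were in no run. The adjusted p of Sfrp2 ran from 0.512 (filter at a mean of 5 RPKM) to 0.999, and its log2 difference from 1.32 to 1.74. Wnt4 ran from −0.94 to −0.18, Tcf7 from −1.08 to −0.26 and Sfrp1 from 0.01 (TPM) to 0.23. None of these 4 changed its side of WT with median scaling, quantile normalization or TPM. The other alternatives, among them leaving out a DKO library, could not change it, since both DKO libraries lay on the same side. Wnt4, Tcf7 and Sfrp1 could not be tested with the filter at a mean of 5 RPKM.

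The count of all called transcripts was 2, and became 13 with a pseudocount of 0.1 RPKM and 1 with 5 RPKM. It was 10 with a filter at a mean of 5 RPKM, 16 with median scaling, and 0 without a filter, with quantile normalization and with TPM. Without the mean-variance trend the count was 3, and with robust limma estimation 2 (2 higher, 0 lower). The 2-fold size rule held for 97 (66 higher, 31 lower), and for 166 with a pseudocount of 0.1 RPKM, 34 with 5 RPKM, 50 with the filter at 5 RPKM and 275 at 1.5-fold. With TPM the split was 71 higher and 67 lower. With 1 DKO library left out, the rule asks for 1 difference only, and 280 to 555 transcripts met it. The median of the wider WNT list, −0.08, was −0.32 with TPM and ran from −0.21 to 0.11 with 1 DKO library left out. Where no alternative's construction accounts for a shift, the cause was not tested. No paired analysis was possible because there is a single WT library against 2 DKO libraries. Few reads lie behind Wnt5a and Wnt7b, with at most about 55 and 1 in a library, and no read was listed for Wnt11 or Lef1. The cause of these low numbers was not tested. Tcf7, Wnt4 and Axin2 rest on about 61, 82 and 92 reads in their lowest library.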
